A study of Homo sapiens with 28 samples.

Results

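The constitutive m6A regions were the stretches of chromatin-associated RNA that carried a called m6A peak in every immunoprecipitated library of the series. Overlapping peaks of the 14 libraries were merged separately on each strand of chromosomes 1 to 22 and X, which gave 86263 regions from 495694 peaks. A region was constitutive when at least 1 of its peaks came from each of the 14 libraries. 7696 regions met this rule, which was 8.92% of all regions, and they held 137088 peaks, or 27.7% of the total. Another 59660 regions were listed in 2 to 13 libraries and 18907 in a single library. Because the presence of a peak chose these regions, their number, width, position and rank are given as descriptions, and only differences in enrichment between groups were tested.

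The libraries were m6A immunoprecipitations (MeRIP-seq) of ribosomal-RNA-depleted RNA from the chromatin fraction of 3 human cancer cell lines. They came from hepatocellular carcinoma cells (HepG2), acute promyelocytic leukaemia cells (NB4) and cells of a chronic myelogenous leukaemia (K562). NB4 gave 3 Control and 3 RBFOX2 KD libraries, K562 gave 2 WT, 2 Control and 2 RBFOX2 KD libraries, and HepG2 gave 2 WT libraries, which made 6 groups. WT cells were unmodified. Control and KD cells both carried a puromycin-selected lentiviral short hairpin RNA, which was non-targeting in Control and directed at RBFOX2 in KD. The study's methods speak of biological replicates, and the labels do not say which cultures they came from, so every p-value measures the spread between these libraries.

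m6A is written on nascent RNA by a methyltransferase complex. METTL3 carries the catalytic activity, METTL14 is its partner, and WTAP, VIRMA, ZC3H13, CBLL1, RBM15 and RBM15B are the accessory subunits. The mark is found mainly in the sequence context DRACH, in long exons and around stop codons, and is read by YTH-domain and IGF2BP proteins and removed by FTO and ALKBH5. RNA on chromatin holds unspliced transcripts, promoter-associated and antisense RNA beside nearly finished messenger RNA, so introns and regions outside genes can carry peaks as well as exons.

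The lists held 23426 (HepG2 WT replicate 1) to 45664 peaks (K562 WT replicate 1). Peak lists give no read counts. The read pileup worked back from fold and p at each summit came out whole, within 0.02 reads, at all summits of 11 libraries. For these, an effective depth was worked out from the lowest local background, with the genome size and read extension in the study's methods. This depth lay between 10.8 M (NB4 Control replicate 1) and 25.6 M reads (K562 WT replicate 1). The pileup did not come out whole in both HepG2 WT libraries and NB4 Control replicate 3, whose depth is therefore not given. As a check of the labels, hepatocyte marker genes with a sense-strand peak numbered 10 of 13 in HepG2, 1 in K562 and 0 in NB4. Erythroid markers numbered 8 of 12 in K562, 4 in NB4 and 2 in HepG2, and promyelocyte markers 9 of 10 in NB4, 4 in K562 and 2 in HepG2. None of the 10 hepatocyte or 9 promyelocyte marker genes with a peak had a constitutive region, and of the 8 erythroid ones only EPOR did. RBFOX2 itself had no constitutive region, and its regions were listed in at most 6 libraries, so the knockdown could not be checked from these lists.

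Sequences are shown for 8 constitutive regions in coding exons that recur below: 4 of the highest-ranked regions (TRIM41, WDR81, FANCE and LMTK3), regions in 2 subunits of the methyltransferase complex (ZC3H13 and RBM15), and regions that differed between cell lines (ZNRF3 and PCNX1). Each is the hg38 sequence of the transcribed strand, 75 bases to either side of the best summit, which is the summit with the highest −log10 q over the 14 lists. Capitals mark every match to DRACH, that is A, G or T, then A or G, then AC, then A, C or T.
TRIM41 exon 1, chr5:181224280-181224430, plus strand: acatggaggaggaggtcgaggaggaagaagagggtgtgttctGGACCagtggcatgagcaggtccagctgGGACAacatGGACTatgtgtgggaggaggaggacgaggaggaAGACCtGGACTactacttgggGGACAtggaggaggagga
WDR81 exon 1, chr17:1728267-1728417, plus strand: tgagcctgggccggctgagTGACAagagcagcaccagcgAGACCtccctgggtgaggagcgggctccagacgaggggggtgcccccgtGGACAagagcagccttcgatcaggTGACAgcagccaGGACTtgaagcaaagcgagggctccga
FANCE exon 2, chr6:35455984-35456134, plus strand: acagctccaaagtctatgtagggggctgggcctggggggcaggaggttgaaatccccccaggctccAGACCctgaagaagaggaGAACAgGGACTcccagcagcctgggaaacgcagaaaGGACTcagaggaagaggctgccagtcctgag
LMTK3 exon 11, chr19:48498222-48498372, minus strand: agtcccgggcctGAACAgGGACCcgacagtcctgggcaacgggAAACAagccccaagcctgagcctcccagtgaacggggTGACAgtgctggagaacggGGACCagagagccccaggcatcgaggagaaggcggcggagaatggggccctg
ZC3H13 exon 10, chr13:45985602-45985752, minus strand: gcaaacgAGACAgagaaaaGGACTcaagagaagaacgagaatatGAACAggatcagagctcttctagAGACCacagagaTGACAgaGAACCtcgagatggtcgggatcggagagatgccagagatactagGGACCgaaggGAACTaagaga
RBM15 exon 1, chr1:110341134-110341284, plus strand: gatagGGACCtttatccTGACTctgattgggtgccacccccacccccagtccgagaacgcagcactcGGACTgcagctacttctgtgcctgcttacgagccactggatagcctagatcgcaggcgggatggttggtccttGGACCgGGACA
ZNRF3 exon 8, chr22:29050581-29050731, plus strand: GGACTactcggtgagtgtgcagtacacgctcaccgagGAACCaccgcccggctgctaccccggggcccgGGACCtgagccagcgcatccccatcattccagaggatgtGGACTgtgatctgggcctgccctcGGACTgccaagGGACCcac
PCNX1 exon 6, chr14:70978416-70978566, plus strand: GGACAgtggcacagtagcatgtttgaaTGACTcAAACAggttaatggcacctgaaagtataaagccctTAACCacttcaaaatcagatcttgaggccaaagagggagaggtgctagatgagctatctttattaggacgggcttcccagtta
The TRIM41 window held 6 DRACH matches, 2 of which were GGACT, the most frequent form of the motif in mammalian m6A, with their A 6 and 45 bases past the summit. ZC3H13 exon 10 held 8 matches with 1 GGACT, RBM15 5 matches with 1 GGACT 6 bases before the summit, and ZNRF3 6 matches with 3 GGACT. LMTK3 ranked second of all constitutive regions and PCNX1 also ranked high, yet neither window held a GGACT. LMTK3 had 5 DRACH matches, among them GGACC, and PCNX1 had 4, among them GGACA.

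Constitutive regions were wide. Width was the span of all merged peaks of a region, so peaks from more libraries could only widen it. The median was 160 bases in regions of 1 library, 600 in those of 13 and 277 in all regions outside the rule. That of the constitutive regions was 923 bases (quartiles 620 and 1403, range 179 to 17591). The peaks that made them up nonetheless shared a core: 7478 regions (97.2%) had at least 1 base under a peak of all 14 libraries, and this common stretch had a median length of 302 bases and covered a median of 37.8% of the region. In the 218 regions without such a base, the best covered base lay under the peaks of at least 9 libraries. The best summits of the 14 libraries fell within 50 bases of each other in 1608 regions (20.9%) and within 150 bases in 4051 (52.6%). In 3925 regions (51.0%) every library listed exactly 1 peak. The widest region, 17591 bases on the minus strand at chr11:62516626-62534216, covered much of the very long last exon of AHNAK, which encodes a giant scaffold protein, and the narrowest, 179 bases at chr3:196488611-196488789, lay in intron 1 of RNF168, a ubiquitin ligase of the DNA damage response.

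They were also strong. Within each library, every peak was given its percentile by −log10 q in that library's own list, so that libraries could be set side by side. A percentile also depends on the length of the list, since the same regions take a larger share of a short one. Constitutive regions made up 20.5 (K562 WT replicate 1) to 40.7% (HepG2 WT replicate 1) of the peaks of a list, and 68.0 (NB4 RBFOX2 KD replicate 2) to 82.3% (K562 Control replicate 2) of its 1000 highest peaks. Their median percentile per library ran from 71.3 in HepG2 WT replicate 1 to 86.1 in K562 WT replicate 1. The median fold over local background at their best summits ran from 4.61 (HepG2 WT replicate 1) to 17.0 (K562 RBFOX2 KD replicate 2). Over all peaks outside them it ran from 3.60 to 6.81. The measures differ, since a constitutive region with several peaks in a library entered by its strongest only. This holds for its percentile as well. Averaged over the libraries, the median region stood at percentile 78.0. 1705 regions (22.2%) averaged 90 or more and 566 (7.35%) averaged under 50, so a constitutive region was not always a strong one.

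**Figure D1:**
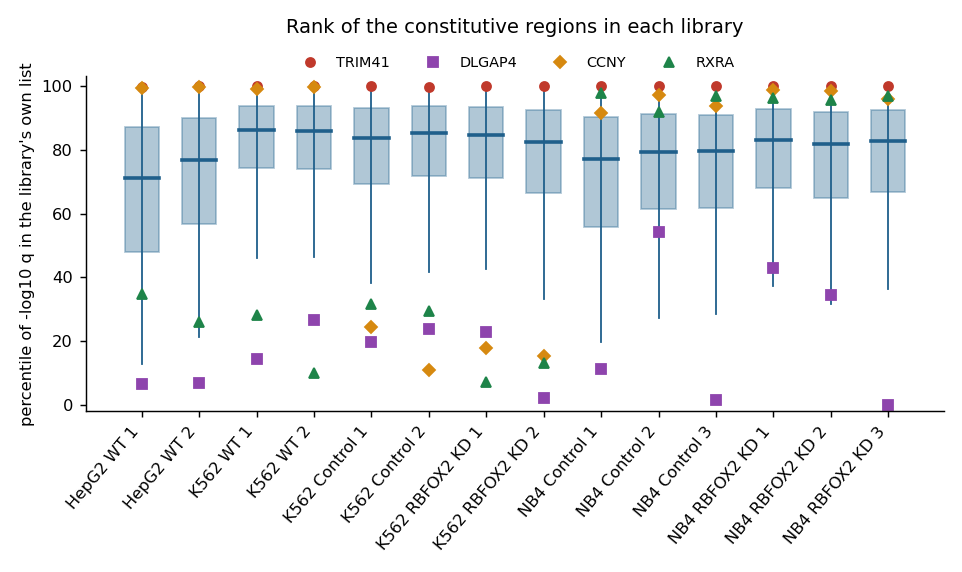
Percentile of −log10 q in each library's own peak list for the 7696 constitutive regions; boxes show quartiles with the median as a line, whiskers the 5th to 95th percentile, and coloured symbols 4 named regions. TRIM41 stayed above 99 in every library, DLGAP4 ranged from 0.00409 to 54.3, CCNY dropped to 10.9 to 24.6 in the 4 K562 Control and KD libraries, and RXRA was above 91 only in the 6 NB4 libraries.

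432 regions were at or above percentile 90 in every library, 143 at or above 95 and 6 at or above 99. The highest mean, 99.93 ± 0.136 (SD, n = 14), belonged to exon 1 of TRIM41, a RING-finger ubiquitin ligase gene, at chr5:181223375-181224821 on the plus strand. Its fold was 7.09 and 15.7 in HepG2 WT, 29.5 and 26.8 in K562 WT, 33.5 and 28.6 in K562 Control, 50.1 and 61.9 in K562 RBFOX2 KD, 44.1, 28.3 and 23.6 in NB4 Control and 27.6, 23.2 and 44.1 in NB4 RBFOX2 KD. The HepG2 values were the lowest and the K562 KD values the highest, while the percentile was at least 99.55 throughout. Exon 11 of LMTK3, a kinase gene, followed at 99.9 ± 0.160, with folds from 13.5 to 74.9. Next came SNRNP35 around its stop codon at 99.88, which encodes a protein of the minor spliceosome, and exon 1 of WDR81 at 99.85, whose SD of 0.0957 was the smallest of all. RBSN (99.84), R3HCC1 (99.82), the Fanconi anaemia gene FANCE (99.76), DIDO1 (99.74) and EME2 (99.71) came after them. The remaining 3 of the 12 highest were the 5′ UTRs of FAM72D, FAM72C and FAM72A, at 99.67, 99.66 and 99.64. These are near-identical copies of 1 gene, and reads could be shared between them, so their separate values are uncertain.

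At the other end, exon 10 of DLGAP4 averaged percentile 19.2 with a range of 0.00409 to 54.3, and had no base under all 14 peaks. GOLGB1 and ACSF3, both around the stop codon, averaged 19.5 and 19.8. The weakest of the 14 peaks of a region set whether it met the rule. Its −log10 q had a median of 27.2 over the constitutive regions, was at least 5 in 7493 of them (97.4%) and under 3 in 65, the lowest being 2.003 against a list limit of 2. The 1605 regions just outside the rule, listed in 13 libraries, had a weakest −log10 q with a median of 11.9, a median width of 600 bases and a median mean percentile of 55.5. In 629 of them (39.2%) the missing library was HepG2 WT replicate 1, which had the shortest list, and in 327 (20.4%) it was NB4 Control replicate 1. A few were strong wherever they were listed. The highest were an intron of ERBIN (93.8) and exon 12 of SMG5 (93.8), both absent from HepG2 WT replicate 1, and the stop codon region of MMP17 (93.2), absent from HepG2 WT replicate 2 and at percentile 29.6 in the other HepG2 library.

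Constitutive regions were mostly exonic. By the best summit, 5170 (67.2%, 95% Wilson interval 66.1 to 68.2) lay in a sense exon of the Ensembl canonical transcript, against 22.9% (22.7 to 23.2) of the other regions. Coding exons away from the stop codon held 2471 (32.1%, against 9.45% of the others). The 200 transcript bases to either side of the stop codon held 1303 (16.9% against 3.87%), 620 of them on the coding side. The rest of the 3′ UTR held 850 (11% against 3.75%) and the 5′ UTR 288 (3.74% against 2.52%). Introns held 1489 (19.4%, 18.5 to 20.3), although 46.9% (46.6 to 47.2) of the other regions were intronic. Regions antisense to genes (121, 1.57% against 7.61%) and intergenic regions (73, 0.949% against 8.88%) were less frequent. These intervals cover counting error only. The window from 1 kb upstream to 100 bases downstream of a same-strand gene start held the summits of 1417 constitutive regions (18.4%) and 13.5% of the others. Among regions listed in 13 libraries that share was 19.75%, so it was not highest in the constitutive regions.

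**Figure D2:**
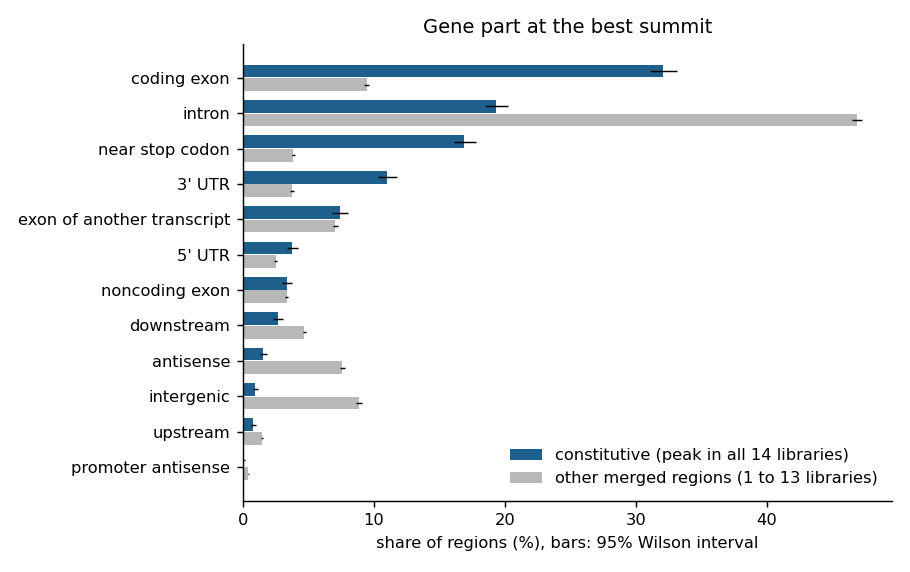
Share of constitutive regions (n = 7696) and of the other merged regions by the gene part at the best summit, with 95% Wilson intervals. Coding exons held 32.1% of the constitutive and 9.45% of the other regions, whereas introns held 19.4% and 46.9%.

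Across regions grouped by the number of libraries that listed them, the share around the stop codon went from 2.14% in regions of 1 library to 12.3% in those of 13 and 16.9% in those of 14. The intronic share went from 50.5% to 32.3% and 19.4% and the intergenic share from 9.10% to 1.56% and 0.949%. In coding exons the share was 9.01% in regions of 1 library, 20.4% in those of 13 and 32.1% in the constitutive regions. Rank moved with gene part too. The median mean percentile was 84.3 in coding exons, 78.8 in the 3′ UTR, 77.3 around the stop codon, 73.1 in introns and 68.2 in antisense regions.

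The coding exons concerned were long. The 1674 constitutive regions in internal coding exons lay in exons with a median length of 695 bases, and 85.4% of these exons had at least 400 bases. For other regions in internal coding exons the values were 237 bases and 27.7%. The last exon held 35.2% of all constitutive regions and 8.63% of the others. Genes followed the same order. Among protein-coding genes with any region, 18.6% had a constitutive region where the longest exon was under 500 bases, 33.1% at 500 to 1000, 37.7% at 1000 to 2000, 41.9% at 2000 to 4000 and 46.4% above 4000. Intronic constitutive regions lay at a median of 3216 bases from the nearest exon, in introns with a median length of 14530 bases. For other intronic regions both values were larger, at 3698 and 19800 bases. Of those placed on the canonical transcript, 25.1% of the constitutive and 29.4% of the other regions were in intron 1.

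The methylation motif was concentrated at the summits. GGACT lay within 50 bases of the best summit, on the strand of the peak, in 1712 constitutive regions (22.2%). Windows of the same size centred 300 bases upstream and downstream held it in 8.68 and 8.43%, and the opposite strand at the summit in 6.72%. The share among all 86263 regions was 17.2%, among regions of 13 libraries 20.5% and among regions of 1 library 13.6%. Any DRACH was present in 94.7% of constitutive summit windows, against 82.5 and 82.2% in the flanks, 90.1% over all regions and 87.4% in regions of 1 library. Of the 18 DRACH spellings, GGACT had the largest ratio to its flanks (2.60), followed by GGACA (2.40), AGACT (2.08) and GAACT (1.89), while TAACC had the smallest (0.763). TGCATG, the sequence that RBFOX proteins bind as RNA, was in 2.21% of the windows, 0.983 times its share in the flanks.

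**Figure D3:**
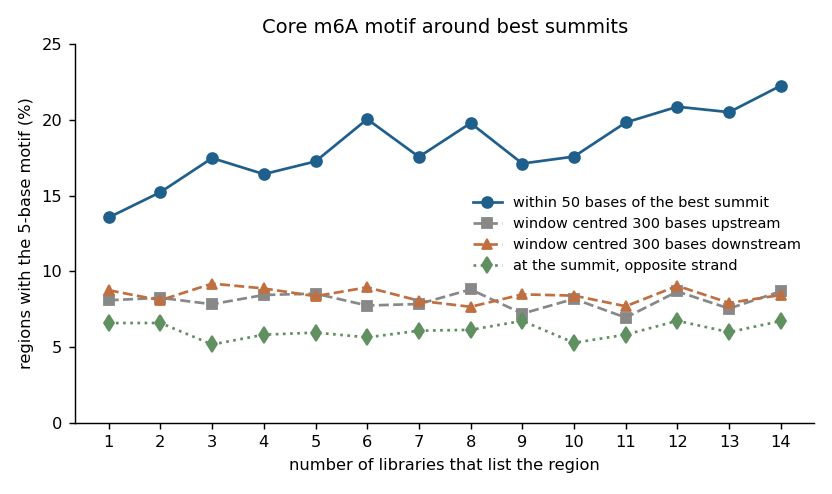
Share of regions with GGACT within 50 bases of the best summit by the number of libraries that list the region, with the same share in windows 300 bases to either side and on the opposite strand. The share was 13.6% in regions of 1 library, 20.5% in those of 13 and 22.2% in the constitutive regions, while the flanking windows stayed between 6.94 and 9.18%.

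By gene part, GGACT was at the summit of 28.5% of constitutive regions in the 3′ UTR, 25.4% in the 5′ UTR, 24.8% around the stop codon, 22.3% in introns and 18.1% in coding exons. For each of these parts the share in other regions was lower (19.6, 14.7, 19.5, 15.6 and 14.5%). By rank, it was in 18.7% of the constitutive regions with a mean percentile under 50 and in 28.8% of the 66 regions at 99 or more. Most constitutive regions therefore had no GGACT at the summit, as in LMTK3 and PCNX1 above, and 410 (5.33%) had no DRACH in the window at all. A match is a description of the sequence and does not place a methylated base.

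A sense-strand constitutive region was present in 4719 genes. These included 4324 of the 11688 protein-coding genes with any region (37.0%) and 336 of 2831 long noncoding RNA genes (11.9%). 3137 genes had 1 region, 1582 had 2 or more and 85 had 5 or more, and 739 regions (9.60%) lay in more than 1 gene of the same strand, where the assignment is uncertain. RPTOR, which encodes the mTORC1 scaffold raptor, had the most with 12. Of these 10 were intronic, with mean percentiles from 43.0 in intron 13 to 90.2 in intron 14, and the others were in the 5′ UTR of exon 1 (74.1) and the 3′ UTR of exon 34 (94.4). RNF213 had 10, 8 of them exonic, and KMT2D, a histone H3 lysine 4 methyltransferase gene, had 8, 7 of them exonic.

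The genes of the m6A methyltransferase complex were all marked, and those of its readers and erasers in part. All 8 genes of the methyltransferase complex found in the annotation had a constitutive region, against 37.0% of protein-coding genes with any region. ZC3H13 had 4. Its region in exon 10 (chr13:45985319-45985893) ranked at 97.5 ± 3.44 (SD, n = 14) and those in exons 15 and 14 and at the stop codon followed. RBM15 and RBM15B help recruit the complex to RNA. RBM15 stood at 94.7 in exon 1 and RBM15B at 94.6 in its only exon. WTAP stood at 92.7 in exon 8, VIRMA at 88.0, METTL14 at 81.1, CBLL1 at 78.2 and METTL3 at 76.8. Of 15 reader and eraser genes, 10 had a constitutive region. The 3 cytoplasmic readers YTHDF1, YTHDF2 and YTHDF3 carried it in the same place, exon 4 of 5, which holds most of the coding sequence, at percentiles 96.3, 97.8 and 94.8. IGF2BP3 ranked at 98.9, ALKBH5 at 87.8 and FTO at 85.1 (exon 3). The readers HNRNPA2B1, HNRNPC, RBMX, FMR1 and ELAVL1 had other regions only.

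Genes of chromatin regulators were also above that share. Constitutive regions were in 22 of 26 histone lysine methyltransferase genes with any region, 16 of 17 lysine demethylase genes, 15 of 20 acetyltransferase and deacetylase genes (a list that also held their cofactors and BRD readers) and 18 of 25 chromatin remodeller genes. Among the highest were SETD2 (98.7), which writes H3K36 trimethylation, KMT2D (98.2), the acetyltransferases KAT6B (98.8) and EP300 (98.4) and the remodeller CHD7 (99.3). KMT2C and SETD1B had 7 regions each. Of the Polycomb repressive complex 2 and RBFOX genes, JARID2 (98.3), EED (98.1) and AEBP2 (97.9) carried constitutive regions, but the catalytic subunit genes EZH1 and EZH2 did not. ZNF genes, most of which encode DNA-binding zinc-finger repressors, had one in 249 of 398 (62.6%). Their 368 regions had a median mean percentile of 79.2, lay in the last exon in 257 cases and on chromosome 19 in 149 (40.5%).

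**Figure D4:**
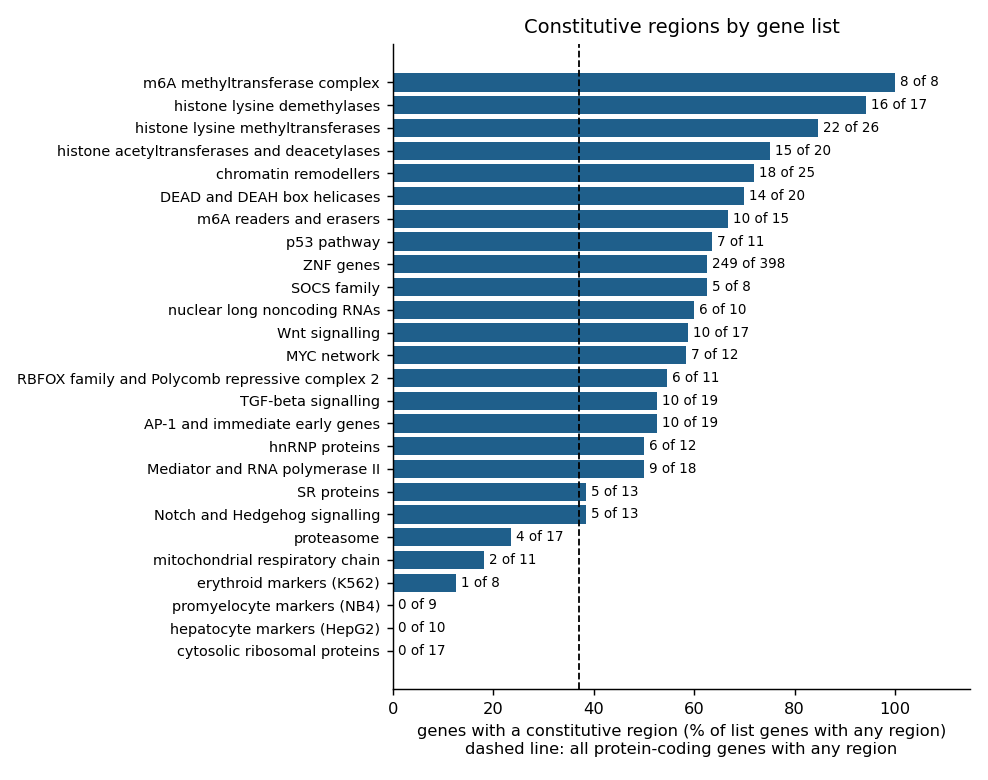
Share of genes with a constitutive region among the genes of each list that had any region, with the counts beside the bars and the dashed line at 37.0% for all protein-coding genes with any region. All 8 methyltransferase complex genes and 16 of 17 demethylase genes had one, and none of 17 cytosolic ribosomal protein genes did.

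Signalling and immediate early gene lists held shares from 38.5% (5 of 13 Notch and Hedgehog genes) to 63.6% (7 of 11 p53 pathway genes). In the AP-1 and immediate early list 10 of 19 genes had a constitutive region, among them JUN (95.5), IER2 (94.5) and EGR1 (93.4), while regions of FOS were listed in at most 5 libraries. The MYC network had 7 of 12, with 6 regions in MGA (highest 97.1) and 83.8 for the higher of 2 in MYC. TGF-beta signalling had 10 of 19, Wnt signalling 10 of 17 with AXIN1, a scaffold of the β-catenin destruction complex, at 99.3, and MDM4, which encodes an inhibitor of p53, stood at 99.2. Housekeeping lists were at the low end. Cytosolic ribosomal protein genes had 0 of 17, respiratory chain genes 2 of 11 and proteasome genes 4 of 17. Of the nuclear long noncoding RNAs, NORAD (96.8), FTX (96.7), TUG1 (90.5), JPX, KCNQ1OT1 and PVT1 had constitutive regions, whereas those of MALAT1 were listed in at most 12 and those of NEAT1 in at most 13 libraries. The lists were chosen with earlier results of these data known, and no test of their shares was made.

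Some noncoding, antisense and extragenic members ranked high, although only 3.31% of antisense and 4.11% of intergenic members averaged percentile 90 or more, against 33.4% in coding exons. 494 constitutive regions lay in long noncoding RNA genes, with a median mean percentile of 74.7. The highest were ENSG00000242588 (99.2), GMDS-DT (99.2) and LINC03006 (98.8). Among antisense regions the highest were upstream of CHRAC1 in the promoter-antisense direction (97.7) and antisense to ENSG00000290728 (97.1), and outside genes they were downstream of PUSL1 (98.9), upstream of STXBP5 (98.5) and downstream of CEP72 (98.5). Of the 129 antisense and promoter-antisense regions, 68 (52.7%) overlapped a region of any kind on the other strand, compared with 1643 (21.4%) of all constitutive regions. 218 constitutive regions overlapped a constitutive region on the opposite strand. The longest such overlap, 2126 bases, joined the 3′ UTRs of FANCA and ZNF276, which converge on chromosome 16. SON, RREB1 and TRIM56 each carried a sense and an antisense constitutive region over the same stretch, the antisense one at the lower rank in all 3 (88.7 against 94.6 in SON).

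Presence in all libraries did not mean an equal rank. The SD of a region's percentile over the 14 libraries had a median of 12.3. Within a group the median SD was 6.73 and among the 6 group means 10.8. The lowest of the 14 percentiles fell in a HepG2 library for 39.6% of the regions, though HepG2 gave 14.3% of the libraries, in NB4 for 42.6% (42.9% of libraries) and in K562 for 17.8% (42.9%). The HepG2 lists were the shortest, with 22635 and 27358 peaks on these chromosomes, and the part of list length in this order was not tested. The region with the largest SD lay in an intron of ZNF432 (40.3). Its percentile was 91.7 and 91.5 in K562 WT, 1.21 and 32.9 in K562 Control, 1.07 and 1.05 in K562 RBFOX2 KD, 75.5 and 86.7 in HepG2 WT and 93.2 to 98.3 in NB4. Intron 1 of CCNY, a cyclin gene, stood at 99.2 and 99.8 in K562 WT but at 24.6 and 10.9 in K562 Control and 18 and 15.3 in K562 RBFOX2 KD. Intron 1 of RAB5B and intron 13 of ATP9B had the same order, with 82.2 or more in K562 WT and 27.1 or less in all 4 hairpin-carrying K562 libraries. In these 4 regions the K562 WT and hairpin-carrying K562 libraries did not overlap. The 3′ UTR of RXRA, a nuclear receptor gene, instead separated the lines, with 91.7 to 97.8 in NB4 and 7.16 to 34.9 elsewhere. These 5 were chosen for their spread and carry no test.

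Enrichment at the constitutive regions was then compared between groups. The measure was the fold over local background at the best summit of a region in each library, on the log2 scale and centred on the library's median over all tested regions. All regions listed in every library of a comparison were tested with limma, so every constitutive region entered each comparison. The lists give no RNA level, so a change in methylation and a change in RNA abundance cannot be told apart. The comparison of Control lines shares its libraries with the KD comparisons. RBFOX2 KD against Control over both lines called 0 of 7696 constitutive regions at a limma adjusted p under 0.05. The background over all 10519 tested regions was 0% as well. At an unadjusted p under 0.05 there were 633 constitutive regions, the smallest adjusted p was 0.30, and the other settings that tested both lines together also gave 0. The differences ran from −0.46 to 0.53 log2 for the central 95% of the regions, with a median of 0.01 and a median SE of 0.196, and only 3 regions exceeded 2-fold. A p above the threshold does not show that a region was unaltered. TRIM41, ZC3H13, RBM15 and the other named regions were thus not called after RBFOX2 KD. The difference in effect between the lines was called at 0 regions too (background 0%, 540 constitutive regions at an unadjusted p under 0.05, smallest limma adjusted p 0.580).

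Taken alone, the K562 difference called 0 constitutive regions (background 0%, 183 at an unadjusted p under 0.05 in limma) and the NB4 difference called 15 (0.195%), 11 higher and 4 lower, against a background of 0.162% of all tested regions. Exon 15 of USP34, a deubiquitinase gene, had folds of 2.54, 2.04 and 1.64 in NB4 Control and 5.92, 6.64 and 6.97 in NB4 RBFOX2 KD (log2 difference 1.65 ± 0.22 SE, limma adjusted p = 0.0250). The last exon of the zinc-finger gene ZNF331 had 7.73, 8.16 and 6.87 in Control and 16.9, 26.1 and 27.0 in KD (1.57 ± 0.21, adjusted p = 0.0250). ZNF43, CYP2R1 and IMMP2L were also higher. SDE2, around its stop codon, had 11.2, 10.5 and 10.2 in Control and 4.57, 4.68 and 5.33 in KD (−1.16 ± 0.18, limma adjusted p = 0.0395), and DGKE, SLC39A9 and TULP4 were lower as well. Control and KD libraries of NB4 did not overlap in the regions whose values are given, which were chosen by their adjusted p. The same regions had close to no difference in K562 (−0.14 ± 0.27 for USP34), but the difference between the lines was not called for any of them. These calls rest on a pooled spread and few libraries: without any 1 of the 4 K562 libraries, NB4 Control replicate 2 or NB4 RBFOX2 KD replicate 2 the number was 0, without NB4 Control replicates 1 and 3 it was 7 and 24, and without NB4 RBFOX2 KD replicates 1 and 3 it was 4 and 11.

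K562 WT and HepG2 WT, both unmodified, differed at 2251 constitutive regions (29.2%, limma adjusted p under 0.05), while 32.8% of all 12839 tested regions were called. Of these, 1514 (19.7%, background 15%) were higher in K562 WT and 737 (9.58%, background 17.7%) lower. The share higher depended on the centring. It was 67.3% of the calls when libraries were centred on all tested regions and 46.6% when they were centred on the constitutive regions (1046 higher and 1200 lower), which moved the median difference of the constitutive regions from 0.16 to −0.01, so directions are relative to that centre. 651 called regions exceeded 2-fold. Without K562 WT replicate 1 or without replicate 2 fewer regions were called, and the median difference of the constitutive regions was 0.16 in both. That group then held 1 library, so the spread came from the HepG2 pair alone. Why the calls fell was not tested. Before centring, the HepG2 libraries had the lower medians, with a median log2 fold of 2.09 and 2.30 over the tested regions against 3.25 and 3.23 in K562 WT. The part of this difference between the libraries in the calls was not tested.

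Of the regions with the smallest adjusted p, the first towards K562 was the last exon of ZNF552, with centred log2 folds of −1.25 and −1.19 in HepG2 WT and 1.12 and 1.21 in K562 WT (difference 2.39 ± 0.153 SE, limma adjusted p = 0.00419). The 3′ UTR of MDM2, the main ubiquitin ligase of p53, had −0.69 and −0.43 against 1.56 and 1.77 (2.22 ± 0.16). ANPEP, which encodes aminopeptidase N, was higher by 2.01, PLXNB1, a semaphorin receptor gene, by 2.32 and SYNJ2 by 1.89. Towards HepG2, the region upstream of STXBP5 had 1.66 and 1.87 in HepG2 WT and −1.02 and −1.12 in K562 WT (−2.84 ± 0.15, limma adjusted p = 0.00419). Its uncentred folds were 13.5 and 18 in HepG2 WT, 4.68 and 4.33 in K562 WT and 14 to 28.3 in the hairpin-carrying K562 libraries. TERT, the catalytic subunit gene of telomerase, was lower in K562 WT by 2.24 (−2.24), ARID5B by 2.01 (−2.01), and exon 8 of ZNRF3, a ubiquitin ligase gene that restrains Wnt signalling, had 1.12 and 1.34 against −0.58 and −0.77 (−1.90 ± 0.16). The 2 groups did not overlap in any of these regions, which adds no support, since the regions were chosen by their adjusted p.

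The shares of the gene lists are read against all constitutive regions, of which 19.7% were higher and 9.58% lower in K562 WT. In the methyltransferase complex 4 of 13 regions (30.8%) were higher and 0 lower: RBM15B (1.26), METTL3 (0.94), CBLL1 (0.64) and VIRMA (0.60). Centred on the constitutive regions, RBM15B, METTL3 and CBLL1 were still called and VIRMA was not (limma adjusted p = 0.0698). The median difference of the list was 0.35, beside 0.16 over all constitutive regions. Remodeller regions were higher at 12 of 56 (21.4%) and histone methyltransferase regions at 16 of 77 (20.8%), both near the overall share. The remodellers had 0 lower (12 higher and 2 lower with the other centring). The histone methyltransferases, led by SETD1A (1.95), DOT1L (1.36) and SUV39H1 (1.18), had 3 lower, among them KMT2C at its stop codon (−1.52), but 9 were higher and 10 lower when centred on the constitutive regions. Immediate early regions were higher at 5 of 12 (41.7%) and lower at 0 (4 and 0 with the other centring), with JUN at 1.46, KLF6 at 1.46 and EGR1 at 1.37. TGF-beta regions were lower at 4 of 18 (22.2%), among them SMAD3 (−1.67), and higher at 1 (5.56%), SMAD5 (1.55). Demethylase regions were lower at 4 of 35 (11.4%), near the overall share, and higher at 3 (8.57%). Centred on the constitutive regions, 2 demethylase regions were higher and 5 lower, and with quantile normalization 3 and 3. Of 15 MYC network regions 2 (13.3%) were higher, MYC around its stop codon (1.16) and MGA (1.20). Another 2 (13.3%) were lower, both in MNT (−1.28 and −0.84). Of 14 regions in nuclear long noncoding RNAs 2 were higher, in NORAD (1.43) and PVT1 (1.37), and 4 lower, with 2 in TUG1 (−0.69 and −0.60), 1 in FTX (−0.79) and 1 in PVT1 (−0.57). The erythropoietin receptor gene EPOR was higher by 1.69.

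NB4 Control and K562 Control, which both carried the non-targeting hairpin, differed at 1759 constitutive regions (22.9%), and 24.4% of all 11491 tested regions were called. 670 (8.71%, background 12.9%) were higher in NB4 and 1089 (14.2%, background 11.5%) lower. Here too the split turned with the centring, from 38.1% higher to 55.3% higher (932 and 752) when libraries were centred on the constitutive regions, which moved their median difference from −0.15 to 0.01. 1307 called regions exceeded 2-fold. Before centring, the median log2 fold over the tested regions was 3.765 and 3.569 in K562 Control and 2.974, 2.883 and 2.816 in NB4 Control. The interquartile range was 1.378 and 1.272 in K562 Control against 1.036, 1.003 and 1.005 in NB4 Control, and centring on a median leaves this in place. The part of these differences in the calls was not tested. Without K562 Control replicate 1 or without replicate 2 fewer regions were called, and the median difference of the constitutive regions was −0.15 in both. That group then held 1 library, so the spread came from the NB4 libraries alone. Why the calls fell was not tested. Among the regions whose best summits lay within 150 bases, 1125 constitutive regions were called.

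**Figure D5:**
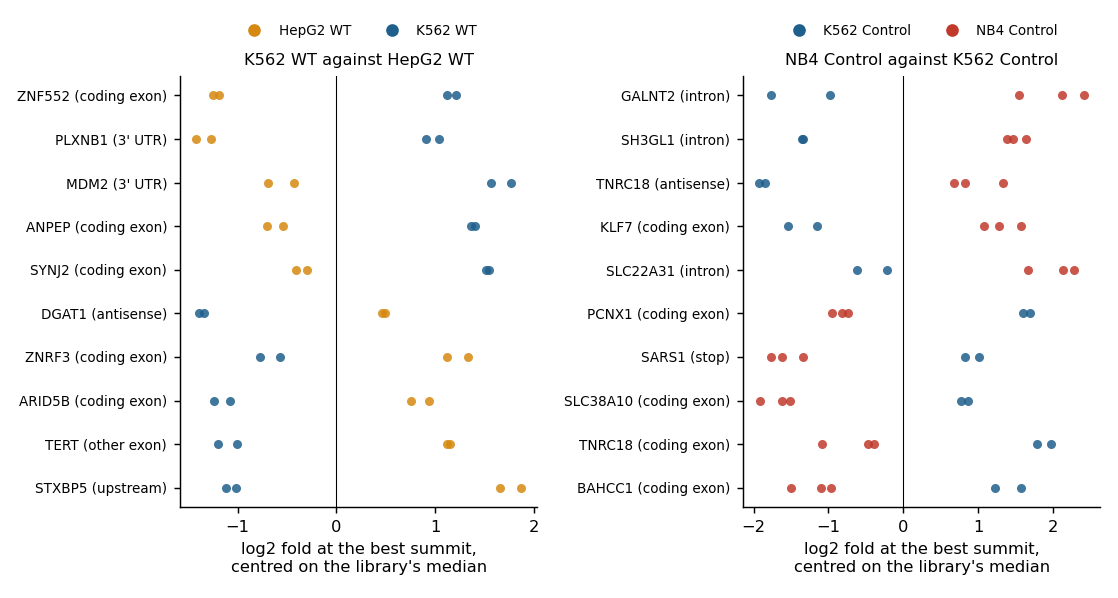
Log2 fold at the best summit in each library, centred on that library's median over the tested regions, for the 5 constitutive regions with the smallest adjusted p in each direction of the 2 comparisons of cell lines; each point is a library. The points of the groups did not overlap in any of the regions shown, which follows from choosing them by adjusted p. STXBP5 (−2.84) and GALNT2 (3.40) were the largest differences of their panels.

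Intron 1 of GALNT2, an O-glycosyltransferase gene, had centred log2 folds of −1.77 and −0.98 in K562 Control and 2.42, 1.55 and 2.12 in NB4 Control (difference 3.40 ± 0.33 SE, limma adjusted p = 0.000877). Intron 1 of SH3GL1 had −1.34 and −1.35 against 1.47, 1.39 and 1.64 (2.85 ± 0.25, limma adjusted p = 0.000602), and exon 2 of the transcription factor gene KLF7 had −1.16 and −1.54 against 1.27, 1.57 and 1.07 (difference 2.66 ± 0.28). In the other direction, exon 6 of PCNX1 had folds of 41.2 and 38.5 in K562 Control and 4.07, 4.16 and 4.21 in NB4 Control (log2 difference −2.49 ± 0.26, limma adjusted p = 0.000877). BAHCC1 (−2.60), SLC38A10 (−2.50) and SARS1 (−2.49), the cytosolic seryl-tRNA synthetase gene, were lower in NB4 as well. At TNRC18 the 2 strands went opposite ways. The coding region in exon 11 (chr7:5370381-5371439, minus strand) had folds of 53.6 and 40.9 in K562 Control and 6.0, 5.30 and 3.32 in NB4 Control (−2.53 ± 0.29, limma adjusted p = 0.000988). The antisense region over the same stretch (chr7:5370285-5371338, plus strand) had 3.79 and 3.12 in K562 Control and 12.6, 18.6 and 12.4 in NB4 Control (2.83 ± 0.30, limma adjusted p = 0.000877). The antisense region had no base under all 14 peaks. With rank scores in place of folds, the adjusted p of the coding regions of TNRC18 and BAHCC1 was 0.0998 and 0.211.

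Among the lists, ZC3H13 exon 10 stood out of the methyltransferase complex. Its folds were 64.4 and 28.2 in K562 Control and 5.54, 4.93 and 4.15 in NB4 Control (−2.36 ± 0.32, limma adjusted p = 0.00137), and CBLL1 was the other of the 2 regions of this list that were lower (−0.85). These 2 were 15.4% of the 13 regions, near the 14.2% of all constitutive regions. When centred on the constitutive regions, 1 was lower. None of 13 was higher. Histone methyltransferase regions were lower at 13 of 77 (16.9%, near the 14.2% of all constitutive regions) and higher at 0, with KMT2A (−1.56) and KMT2D (−1.40) the lowest, and at 6 and 1 when centred on the constitutive regions. Of 15 MYC network regions 3 were lower: MYC around its stop codon (−1.91) and in a coding exon (−1.16), and MLXIP (−1.61). The 2 higher were in MNT (1.22) and MXD3 (1.26), whose proteins compete with MYC for its partner MAX. The median difference of this list was 0.02. Centred on the constitutive regions, 3 were higher and 3 lower, so the list was not shifted to either side. Of 12 immediate early regions 3 were higher, in KLF10 (1.93), FOSL2 (1.54) and EGR1 (1.34), and 1 was lower, in IER2 (−0.93). The median difference of the immediate early list was −0.46, beside −0.15 over all constitutive regions, so the 3 higher regions do not stand for the list. None of the immediate early list was lower when centred on the constitutive regions. EPOR, higher in K562 WT than in HepG2 WT, was lower in NB4 Control than in K562 Control (−1.71). By gene part, 432 of 2471 coding exon regions (17.5%) were called lower in NB4 and 154 (6.23%) higher, whereas 8 of 121 antisense regions (6.61%) were called lower and 27 (22.3%) higher. Over all constitutive regions 14.2% were lower and 8.71% higher. Centred on the constitutive regions, the numbers were 299 lower and 216 higher in coding exons and 7 lower and 37 higher in antisense regions. Over both comparisons of cell lines, 4286 constitutive regions (55.7%) were called in neither.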

How the data were processed

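m6A immunoprecipitation libraries of chromatin-associated RNA (EpiMark m6A kit, RiboMinus depletion, SMARTer stranded libraries) were analysed from 14 peak lists; input libraries were not used here. The authors trimmed reads with Trimmomatic 0.39, aligned them to hg38 with HISAT2 2.1.0, split strands with samtools 1.9 and called peaks on each strand of each library with MACS version 2 at q below 0.01, without pooling replicates. Whether matched input served as the control is not stated. The deposited lists give for each peak the fold over local background at the summit (a linear ratio), −log10 p, −log10 q and an integer score, which was not used.

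Peaks of chromosomes 1 to 22 and X were merged per strand where they shared a base, and each region was placed by its best summit on GENCODE release 44. A stop codon region spans 200 transcript bases to either side, upstream means within 1 kb of a gene and downstream within 5 kb. Log2 folds, centred per library on the median of the tested regions, were compared with limma 3.58.1 (R 4.3.3, trended prior variance, Benjamini-Hochberg adjustment over all regions tested, threshold 0.05). The KD model took K562 and NB4 Control and KD libraries together. Everything else used Python 3.11.15. The scripts were tested on simulated data. Named regions were those with the highest, lowest, steadiest and most variable percentiles, the widest and narrowest, the highest of each minor class, and the 5 per direction with the smallest adjusted p. The members, gene lists and tests were chosen with earlier results of these data known. Sequences were read from the hg38 reference.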

Additional observations from a re-analysis of the deposited data

How the results depend on the processing

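The number of constitutive regions was 7696, and 7710 to 8325 when 1 library was left out, 7494 with peaks of −log10 q of at least 5 and 5628 with lists of equal length (22635 peaks). The median width fell from 923 to 302 bases when only the stretch under all 14 peaks was measured, and the 3′ UTR share from 11 to 10.4% when regions were placed by the median position of their 14 best summits. No RBFOX2 KD effect over both lines, and no difference between the lines, was called under any setting (0 to 0 when a library was left out). The NB4 difference alone gave 15 constitutive regions. That number was 34 with quantile normalization, 312 with rank scores of −log10 q, 5 with a pseudocount of 1, 9 when centred on the constitutive regions and 4 among regions with summits within 150 bases. K562 WT against HepG2 WT called 2251, and 212 to 2435 when a library was left out. NB4 Control against K562 Control called 1759, 367 to 1584 when a library was left out and 1125 with summits within 150 bases, where 4882 constitutive regions were tested. With quantile normalization the calls were 62.4% higher in the former and 41.4% higher in the latter. Of 213 alternative values for the 20 regions named from the comparisons of cell lines, 211 kept their direction and side of the threshold, 2 lost significance and 0 reversed.

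Libraries with the same replicate number did not deviate together (correlations of −0.106 to 0.0329), so numbers were not taken as pairs. With a replicate block, the KD effect and the difference between lines gave 0, the NB4 difference 0 and K562 WT against HepG2 WT 2374. No block was fitted to the Control comparison, which has 2 against 3 libraries. Depth was worked back for 11 libraries only, and the small number of replicates limits the detectable change.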
